A study of Mus musculus with 14 samples.

Results

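The genes described here are 10 members of the unfolded protein response of the endoplasmic reticulum (ER), namely Hspa5, Hsp90b1, Pdia4, Creld2, Sdf2l1, Dnajb9, Dnajc3, Herpud1, Xbp1 and Atf6. They were found by symbol in a table of transcript levels in mouse hepatocytes, and they account for 10 of 54446 genes and 30 of 137767 transcripts in it. The libraries are poly(A)-selected RNA sequencing of hepatocytes purified from C57BL/6 mice, 14 in all, in 6 groups that test the loss of the splicing factor SRSF1 in hepatocytes. The constitutive knockout (HKO) carries srsf1f/f;albcre+/- and was sampled at postnatal day 10 (P10) in 2 libraries and at 1 month in 2 libraries. Its controls carry albcre+/- without the floxed allele in their stated genotype, at P10 in 2 libraries and at 1 month in 2 libraries, so that all 8 carry the Cre gene driven by the albumin promoter. The acute knockout (acHKO) is an srsf1f/f mouse injected at 8 weeks with an AAV8 vector that expresses iCre from the hepatocyte-specific TBG promoter (aav-tbg-icre), in 3 libraries. Its controls are srsf1f/f mice injected with aav-tbg-gfp, in 3 libraries, and both were sampled at 10 weeks, 2 weeks after injection. Acute controls thus received a virus but no recombinase, and they do not separate the effect of losing SRSF1 from that of expressing iCre. The labels do not say whether libraries of a group come from separate animals, so p-values measure the spread between these libraries, which may be technical.

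Secreted and membrane proteins fold in the ER, and hepatocytes, which secrete albumin and most other plasma proteins, keep a large pool of ER chaperones. When unfolded proteins accumulate, 3 sensors respond. ATF6 is cut in the Golgi and enters the nucleus, IRE1 removes a short intron from Xbp1 mRNA so that the active transcription factor XBP1s is made, and PERK slows translation and raises ATF4. ATF6 and XBP1s bind short promoter elements, the ER stress response element (ERSE), its variant ERSE-II and the unfolded protein response element (UPRE), and raise the chaperones, folding enzymes and degradation factors described here.

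The promoter elements are shown because they are the known link between both transcription factors and these genes. The windows run from 250 bases before to 50 bases after the transcription start (RefSeq, GRCm38.p6), and 9 of the 10 genes had one there, all but Atf6. Both strands were searched for ERSE as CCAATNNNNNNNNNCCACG, for ERSE-II as ATTGGNCCACG and for the UPRE core as TGACGTG. ERSE was found in 4 of these 9 promoters, against 39 of all 32851 promoters (0.119%). ERSE-II was found in that of Herpud1 alone among the 9, and in 12 of all promoters (0.0365%). The UPRE core was found in that of Hspa5 alone among the 9, and in 661 of all promoters (2.01%). A match of letters is not a measured binding site, and nothing follows for the 4 promoters without a match. No element in the list overlaps another. The lines below give each element in capitals, read along the gene's own strand, with the distance of its first and last base from the start.
Hspa5 ERSE (chr2:34772020-34772048, + strand, -65 to -47): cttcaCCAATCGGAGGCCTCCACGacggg
Hspa5 UPRE core (chr2:34771922-34771950, + strand, -157 to -151): gggcgtagcaaTGACGTGagttgcggagg
Hsp90b1 ERSE (chr10:86705633-86705661, - strand, -212 to -194): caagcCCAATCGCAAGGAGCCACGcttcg
Hsp90b1 ERSE, opposite orientation (chr10:86705528-86705556, - strand, -107 to -89): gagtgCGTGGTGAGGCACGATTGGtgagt
Dnajc3 ERSE (chr14:118937822-118937850, + strand, -105 to -87): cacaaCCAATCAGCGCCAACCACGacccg
Creld2 ERSE, opposite orientation (chr15:88819515-88819543, + strand, -126 to -108): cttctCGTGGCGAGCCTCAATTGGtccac
Herpud1 ERSE-II (chr8:94386368-94386396, + strand, -52 to -42): cgggcgctgATTGGGCCACGttggacact

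**Figure D1:**
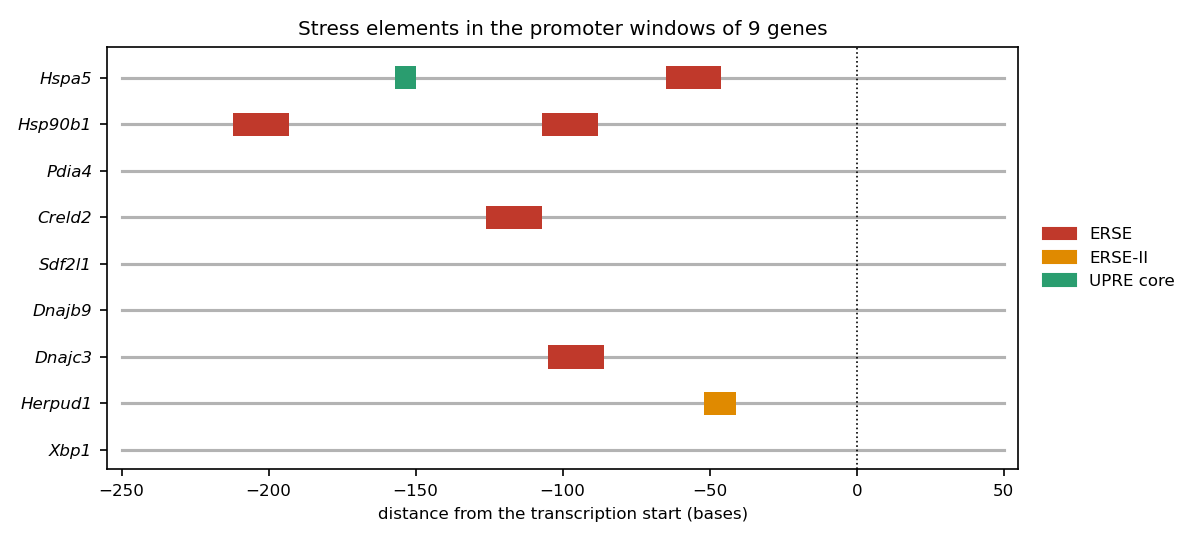
Positions of the elements along the promoter windows of 9 of the genes; the x axis is the distance in bases from the transcription start, the grey lines are the windows searched, and the coloured boxes are ERSE, ERSE-II and UPRE core matches. All 7 matches lie between 212 and 42 bases before the start, and Hspa5 and Hsp90b1 hold 2 each.

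Values are TPM, a unit of transcript abundance scaled for transcript length and for the library's total, estimated by the submitters with kallisto and summed here per gene. Genes were tested with limma on log2(TPM + 1), which understates the change of low genes, and p-values were adjusted by the Benjamini-Hochberg method over all genes that averaged 1 TPM or more, with 0.05 as the threshold. TPM are shares of a fixed total, and the depth of the libraries is unknown. The gene in the middle of the order had a log2 fold change of 0.25 at P10, and this median was -0.0013 in the 1 month and -0.36 in the acute comparison. A fold change called relative below is the log2 fold change minus that median. The SE and p-values beside it belong to the log2 fold change before that subtraction, and the relative value itself was not tested. Members that passed on either scale are also given after rescaling the libraries by median ratios, after which this median was 0.0058 for P10, -0.065 for the 1 month libraries and -0.12 for the acute ones. Albumin was at 19440 TPM or more in every library. The 8 hepatocyte markers summed to 60230 to 76990 TPM in HKO_P10, against 108000 to 113100 TPM in control_P10. At 1 month the sums were 52050 to 70580 TPM in HKO and 61540 to 80080 TPM in controls. In the acute comparison they were 32590 to 50020 TPM in acHKO and 40810 to 52220 TPM in GFP controls. By the test 2 of 8 were lower at P10 (4 after rescaling), 1 at 1 month (3) and 3 in acHKO (2). Of all genes 1.87% were lower at P10 (6.08% after rescaling), 1.99% at 1 month (7.84%) and 34.8% in acHKO (27.5%). Srsf1 was at 29.98 and 23.4 TPM in HKO_P10, against 43.6 and 46.4 TPM in control_P10. In HKO_1m it was at 7.74 and 9.17 TPM, against 23.2 and 20.01 TPM in control_1m, and in the acute comparison at 3.69 to 5.34 TPM in acHKO, against 16.5 to 32.3 TPM in GFP controls. Mitochondrially encoded genes took 33.5 to 42.9% of TPM in acHKO, against 11.8 to 16.1% in GFP controls, and 35.8 and 50.6% in HKO_1m, against 26.0 and 31.2% in control_1m. HKO_P10 replicate 2 stood apart, with 74.7 TPM of the X-inactivation RNA Xist, against at most 0.0147 TPM in the other 13 libraries. Its level of the Y-linked gene Ddx3y was 0.0436 TPM, against 6.04 to 25.96 TPM in the other 13. By these genes it is female and the others are male, so sex differs within HKO_P10, whose libraries thus come from different animals. The P10 results of the 10 genes and the P10 counts of the other lists are given with and without this library. Macrophage markers, all 12 of which reach a mean of 1 TPM, summed to 510 to 742 TPM in HKO_P10, against 435 to 456 TPM in control_P10. They summed to 56.8 to 158 TPM in HKO_1m, against 16.5 to 20.5 TPM in control_1m, and to 8.21 to 52.9 TPM in acHKO, against 5.64 to 14.4 TPM in GFP controls. By the test, 1 of 12 macrophage markers was higher at P10 (2 without HKO_P10 replicate 2), 9 of 12 at 1 month (4 after rescaling) and 6 of 7 in acHKO (0 after rescaling). Cholangiocyte markers summed to 137 to 169 TPM in HKO_P10, against 65.1 to 78.2 TPM in control_P10 (3 of 5 tested higher, 2 without HKO_P10 replicate 2), and to 24.8 to 38.4 TPM in HKO_1m, against 5.15 to 5.45 TPM in control_1m. Of all genes tested 10.8% were higher at P10, 4.87% at 1 month (6.82% after rescaling) and 5.93% in acHKO (14% after rescaling). In the acute libraries alone 7 of the 12 macrophage markers reached a mean of 1 TPM and were tested. Erythroid markers summed to 486 to 2919 TPM in HKO_P10, against 229 to 385 TPM in control_P10. Of 10 plasma and B cell markers, cells that also hold much ER chaperone RNA, 3 reached a mean of 1 TPM. Ighm, the immunoglobulin heavy chain of B cells, was at 9.49, 3.16 and 3.46 TPM in acHKO, against 0.154, 0.161 and 0.880 TPM in GFP controls, and passed as higher on both scales (log2 fold change 2.09, adjusted p = 5.982e-05, and 0.00376 after rescaling). The sum of these markers was mostly Sdc1, and the plasma cell receptor Tnfrsf17 was at 0 in every HKO_1m, acHKO and GFP library. The part of other cell types in the results below was not tested, and in bulk RNA fewer cells of a type and less RNA per cell cannot be told apart.

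All 10 genes passed the filter on low values in every comparison. Hspa5 and Hsp90b1 were the most abundant at P10, in HKO_1m and in GFP controls, while Herpud1 was the most abundant in control_1m and acHKO. Hspa5 ranked 162 of 12580 genes at 1 TPM or more in HKO_P10 and 237 of 11888 in control_P10. Sdf2l1 and Atf6 were the lowest members in all groups, and of these Sdf2l1 was below Atf6 at P10 and at 1 month. Herpud1 ranked 546 of 10520 in HKO_1m and 229 of 10017 in control_1m. At P10 none of the 10 genes passed the test, at 1 month Herpud1 alone passed, as lower, and in the acute knockout 8 of 10 passed, all as lower. Of all genes tested, 12.7% passed at P10, 1.99% passed as lower at 1 month and 34.8% as lower in the acute knockout. After median-ratio rescaling the acute count was 2, Dnajb9 and Xbp1, where 27.5% of all genes were lower. The 1 month count was then 5, all lower, namely Herpud1, Dnajb9, Dnajc3, Atf6 and Xbp1, where 7.84% of all genes were lower.

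**Figure D2:**
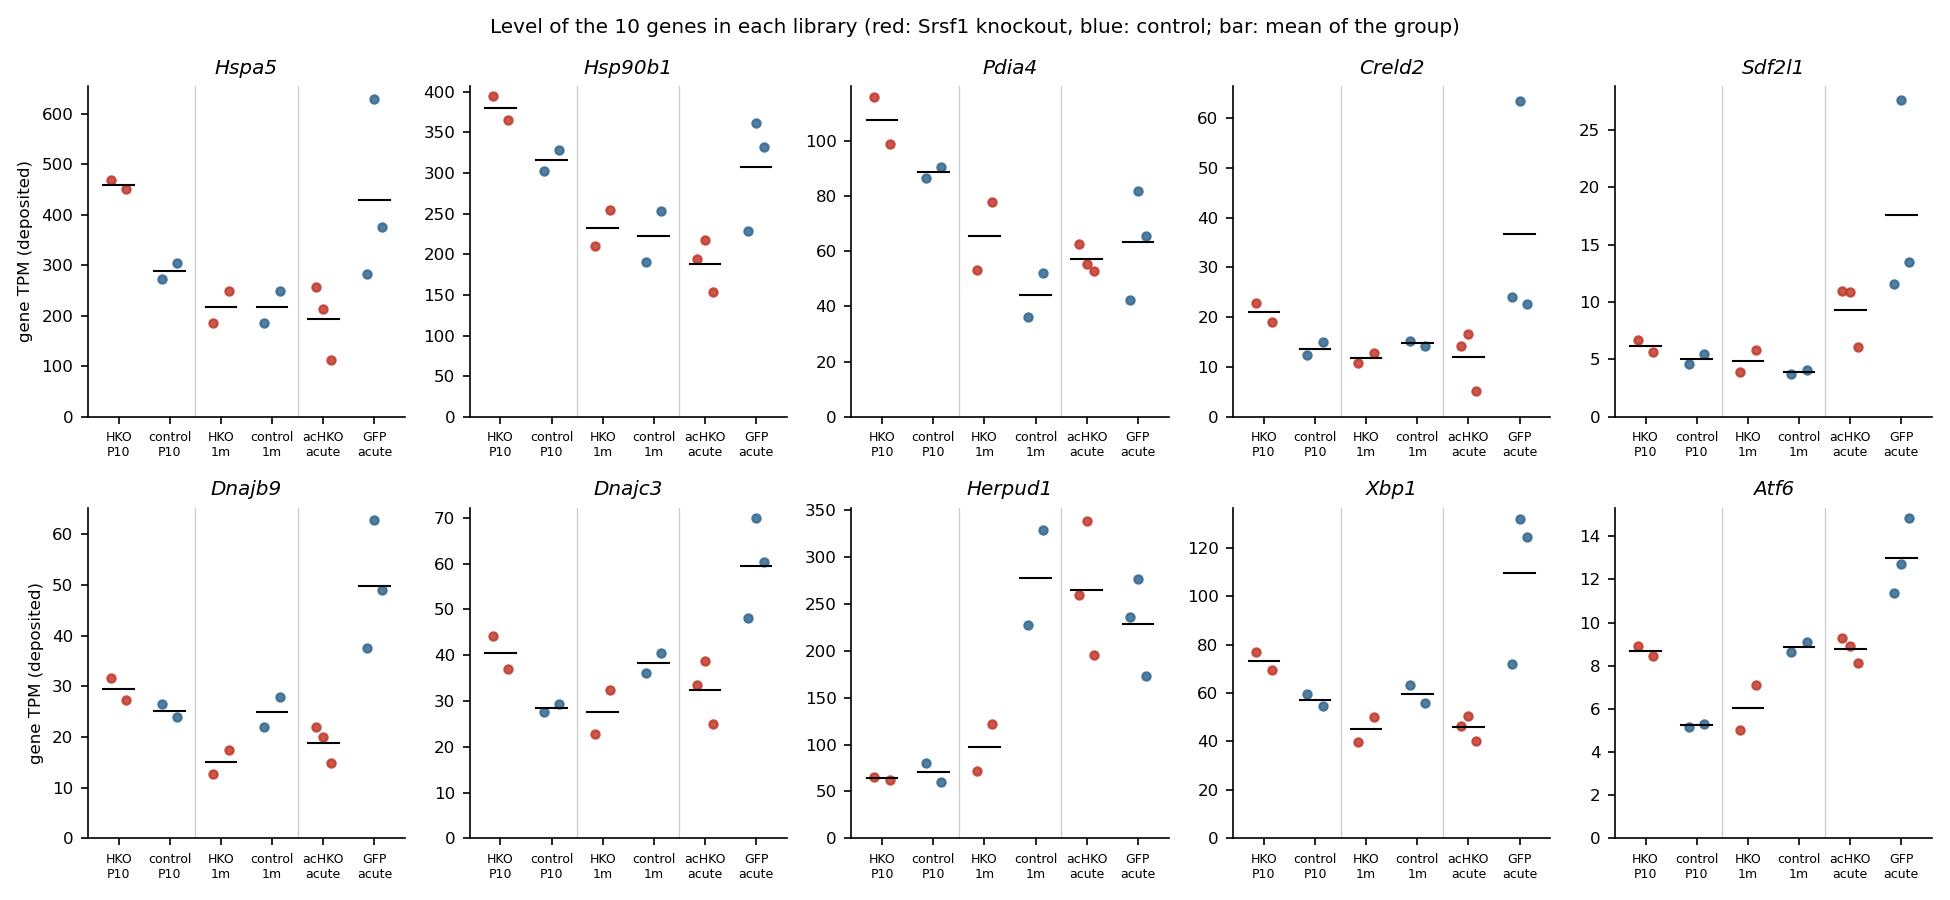
Gene TPM of each library for the 10 genes, one panel a gene with a linear axis from 0; points are libraries, red for the knockout groups and blue for their controls, and black bars are group means. Hspa5 lies at 450 TPM or more in HKO_P10 libraries and at 304 TPM or less in control_P10, Herpud1 is at 71.9 and 122 TPM in HKO_1m and above 226 TPM in control_1m, and GFP replicate 2 is the highest of its group for every gene but Atf6.

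Hspa5 encodes BiP, the Hsp70 of the ER lumen, which binds unfolded chains and holds the 3 sensors inactive. In HKO_P10 it was at 468 and 450 TPM, against 272 and 304 TPM in control_P10. Both knockout libraries lay above both controls, a relative log2 fold change of 0.42 (SE 0.26), but the difference did not pass (limma adjusted p = 0.11, and 0.154 after median-ratio rescaling). Without HKO_P10 replicate 2 the log2 fold change was 0.70 (adjusted p = 0.329), close to 0.67 with it. At 1 month Hspa5 was at 186 and 250 TPM in HKO, against 186 and 250 TPM in controls, so the groups covered the same range. In acHKO it was at 257, 212 and 112 TPM, against 283, 629 and 375 TPM in GFP controls. The groups did not overlap, but acHKO replicate 1 and GFP replicate 1 were close. The log2 fold change was -1.14, or -0.78 relative to the median gene (SE 0.30, adjusted p = 0.00761), and after median-ratio rescaling it was -0.85 and did not pass (adjusted p = 0.11).

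Hsp90b1 encodes GRP94, the Hsp90 of the ER, and Pdia4 encodes ERp72, a disulfide isomerase. Hsp90b1 was at 395 and 364 TPM in HKO_P10, against 302 and 328 TPM in control_P10, a difference that matched the median gene (relative log2 fold change 0.015, SE 0.24). In acHKO it was at 194, 217 and 154 TPM, against 228, 362 and 332 TPM in GFP controls. Hsp90b1 passed as lower on the deposited TPM (log2 fold change -0.69, SE 0.23, limma adjusted p = 0.0228, relative -0.33) but not after median-ratio rescaling (adjusted p = 0.125). Pdia4 did not follow them. It was at 62.7, 55.3 and 52.9 TPM in acHKO, inside the range of the GFP controls at 42.3, 81.9 and 65.5 TPM, and its log2 fold change was -0.10 on the deposited TPM and 0.19 after median-ratio rescaling, neither of which passed. At 1 month Pdia4 was at 53.2 and 77.8 TPM in HKO, against 36.0 and 52.0 TPM in controls. These groups lay next to each other without overlap, and the log2 fold change of 0.56 (SE 0.27) did not pass (adjusted p = 0.307). At P10 it was at 116 and 98.9 TPM in HKO, against 86.3 and 90.6 TPM in controls (relative log2 fold change 0.020).

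Creld2 is an ER protein with disulfide isomerase motifs that is strongly raised by ER stress, and Sdf2l1 is an ER protein that keeps clients soluble together with BiP and its J-domain partners. Creld2 was at 14.2, 16.6 and 5.28 TPM in acHKO, against 24.0, 63.5 and 22.6 TPM in GFP controls. Each acHKO library lay under each control, though GFP replicate 2 was more than both other controls together. Its log2 fold change of -1.50 (SE 0.36, limma adjusted p = 0.00422, relative -1.14) was the lowest of the 10 in this comparison and had the widest error. It did not pass after median-ratio rescaling (adjusted p = 0.104). At P10 Creld2 was at 22.9 and 19.1 TPM in HKO, against 12.4 and 14.95 TPM in controls (relative 0.33, SE 0.22, adjusted p = 0.102). Its level was 10.8 and 12.8 TPM in HKO_1m, against 15.2 and 14.3 TPM in control_1m (relative -0.30, adjusted p = 0.525). Sdf2l1 was at 10.998, 10.8 and 6.07 TPM in acHKO, against 11.6, 27.6 and 13.5 TPM in GFP controls, where GFP replicate 2 again stood well above the others. It passed on the deposited TPM (log2 fold change -0.79, SE 0.28, limma adjusted p = 0.0323, relative -0.43) and not after median-ratio rescaling (adjusted p = 0.265). In both HKO comparisons Sdf2l1 stayed between 3.69 and 6.69 TPM and did not pass.

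Dnajb9 (ERdj4) and Dnajc3 (p58IPK) are J-domain partners that hand unfolded chains to BiP; Dnajb9 also represses IRE1, and Dnajc3 was first described as an inhibitor of PERK and of PKR. Dnajb9 was at 21.9, 19.999 and 14.8 TPM in acHKO, against 37.6, 62.8 and 49.1 TPM in GFP controls. There was a wide gap between the groups, and it fell by 1.34 on the log2 scale, -0.98 relative to the median gene (SE 0.22, adjusted p = 0.000253), and by 1.06 after median-ratio rescaling (adjusted p = 0.00795). Dnajb9 passed as lower in every alternative run for the acute comparison, leaving out any single library included. HKO_1m libraries were at 12.7 and 17.5 TPM, against 22.0 and 28.0 TPM in control_1m, relative -0.70 (SE 0.24), which did not pass on the deposited TPM (adjusted p = 0.127) and passed after median-ratio rescaling (adjusted p = 0.0132). At P10 it was at 31.6 and 27.3 TPM in HKO, against 26.5 and 23.9 TPM in controls, slightly higher on the deposited TPM and slightly lower after rescaling (0.21 and -0.063, neither passed). Of the 31-base words of its main transcript 11.3% also occur in transcripts of other genes, most in Gm6568, so part of its level is uncertain.

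Dnajc3 was at 33.5, 38.7 and 24.9 TPM in acHKO, against 48.1, 69.9 and 60.3 TPM in GFP controls. It fell on the deposited TPM (log2 fold change -0.86, SE 0.22, limma adjusted p = 0.00531, relative -0.50), and the adjusted p was 0.0537 after median-ratio rescaling. HKO_1m libraries held 22.8 and 32.5 TPM, against 36.1 and 40.4 TPM in control_1m, relative -0.47 (SE 0.24), which passed only after rescaling (adjusted p = 0.336 on the deposited TPM and 0.028 after rescaling). At P10 it was at 44.1 and 36.9 TPM in HKO, against 27.6 and 29.2 TPM in controls, relative 0.24 (SE 0.24, adjusted p = 0.201).

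Herpud1 encodes HERP, a membrane protein of the ER that helps to assemble the ubiquitin ligase complex for ER-associated degradation. It was at 71.9 and 122 TPM in HKO_1m, against 227 and 329 TPM in control_1m. Both knockout libraries lay far under both controls, at 0.349 times the control mean, and Herpud1 fell by 1.53 on the log2 scale (SE 0.31, adjusted p = 0.0118). It was the one member to pass at 1 month, where 1.99% of all genes tested passed as lower and 6.86% in either direction, and it fell by 1.60 after median-ratio rescaling (adjusted p = 0.00545). The call was lost without HKO_1m replicate 1 (-1.15, adjusted p = 0.0649) and without control_1m replicate 2 (-1.27, adjusted p = 0.0754). In the authors' deposited table the log2 fold change was -1.62 (adjusted p = 8.402e-08). At P10 Herpud1 was at 65.8 and 61.8 TPM in HKO, against 80.3 and 60.2 TPM in controls, where the groups overlap (relative -0.37, SE 0.31, adjusted p = 0.815). In acHKO it was at 259, 339 and 195 TPM, against 236, 276 and 173 TPM in GFP controls, the one member with a higher mean in acHKO. The log2 fold change of 0.20 (SE 0.24, limma adjusted p = 0.515, relative 0.56) did not pass. Herpud1 overlaps the antisense gene Gm15890, and no source used here says whether strand was used in the estimation.

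The knockout effects were then set against each other, the acute and 1 month effects in a fit of all 14 libraries. For Herpud1 the acute effect minus the 1 month effect was 1.73 on the log2 scale (SE 0.42, adjusted p = 0.0223) and 2.15 after median-ratio rescaling (adjusted p = 0.0124). Herpud1 was the one member to pass, where 6.83% of all genes passed, and 13.5% after rescaling. The difference between the 1 month and P10 effects did not pass for Herpud1 (-1.41, SE 0.44, adjusted p = 0.133) or any other member on the deposited TPM, where 2.8% of all genes passed. Atf6 came nearest (-1.13, SE 0.29, adjusted p = 0.0645). With libraries rescaled by median ratios its difference was -0.95 and passed (adjusted p = 0.0144), as 4.61% of all genes did. Herpud1 also changed with age. It was at 227 and 329 TPM in control_1m, against 80.3 and 60.2 TPM in control_P10, and rose by 1.96 on the log2 scale (SE 0.31, adjusted p = 0.000407), or 2.39 relative to the median gene, where 44.3% of all genes passed in either direction (45.2% after rescaling). In HKO it was at 71.9 and 122 TPM at 1 month, against 65.8 and 61.8 TPM at P10, a log2 fold change of 0.55 that did not pass on the deposited TPM (adjusted p = 0.135) and one of 1.40 that passed after rescaling (adjusted p = 0.00325). Over this age step in HKO 66.6% of all genes passed on the deposited TPM and 39.5% after rescaling.

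Core clock genes and their direct outputs also differed between HKO_1m and control_1m. This list of 12 was chosen after the data were seen, and 6 of the 11 tested passed as lower and 1 as higher in HKO_1m (7 and 1 after rescaling), where 1.99% of all genes were lower and 4.87% higher. Their summed level came to at most 51.8 TPM in both HKO_1m libraries, against 202 TPM in control_1m replicate 1 and 103 TPM in replicate 2. Herpud1 had the opposite order in these controls, at 227 and 329 TPM. In the acute comparison the summed level was 132 to 176 TPM in acHKO, against 113 to 215 TPM in GFP controls. In acHKO 3 of the 11 passed as lower and 1 as higher (1 and 1 after rescaling). Of all genes 34.8% were lower there and 5.93% higher (27.5% and 14% after rescaling). Ciart was at 1.94 and 2.02 TPM in HKO_1m, against 29.3 and 8.60 TPM in control_1m. In acHKO Ciart averaged 37.6 ± 6.2 TPM and in GFP controls 14.6 ± 4.7 TPM (SD, n = 3 each), higher in acHKO (adjusted p = 0.000309). Arntl, which peaks in the opposite phase, was at 4.45 and 8.84 TPM in HKO_1m, against 2.09 and 2.64 TPM in control_1m. No source used here gives the hour of sampling, and its part in the Herpud1 result was not tested.

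Xbp1 and Atf6 encode the transcription factors that drive the genes above. Xbp1 was at 46.4, 50.7 and 40.3 TPM in acHKO, against 71.8, 132 and 124 TPM in GFP controls. The groups were well apart, and it fell by 1.20 on the log2 scale, -0.83 relative to the median gene (SE 0.23, adjusted p = 0.00088), and by 0.91 after median-ratio rescaling (adjusted p = 0.00823). Xbp1, like Dnajb9, passed as lower in every alternative run for this comparison. At 1 month Xbp1 was at 39.9 and 49.9 TPM in HKO, against 63.4 and 56.0 TPM in controls, relative -0.41 (SE 0.23, adjusted p = 0.40, and 0.0475 after median-ratio rescaling). At P10 it was at 77.1 and 69.6 TPM in HKO, against 59.4 and 54.8 TPM in controls, a relative log2 fold change of 0.10 (SE 0.23, adjusted p = 0.323).

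Atf6 was at 8.90 and 8.46 TPM in HKO_P10, against 5.17 and 5.32 TPM in control_P10. The replicates of each group lay close together, and at a relative log2 fold change of 0.38 (SE 0.20) Atf6 came nearest of the 10 to the threshold without passing (adjusted p = 0.0648, and 0.0514 on median-ratio rescaled TPM). Leaving out HKO_P10 replicate 2 gave an adjusted p of 0.258. In the authors' deposited table it passed (0.41, adjusted p = 0.00321). At 1 month it was at 5.01 and 7.09 TPM in HKO, against 8.65 and 9.12 TPM in controls, and passed as lower after median-ratio rescaling but not on the deposited TPM (relative -0.50, SE 0.20, adjusted p = 0.198 on the deposited TPM and 0.0102 after rescaling). In the acute comparison it was at 9.30, 8.89 and 8.14 TPM in acHKO, against 11.4, 12.7 and 14.8 TPM in GFP controls. That passed on the deposited TPM (log2 fold change -0.51, adjusted p = 0.0423), but the relative log2 fold change was -0.15 (SE 0.19), and the call was lost after median-ratio rescaling (adjusted p = 0.0698).

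Counts of members have to be read against all genes. At P10, 9 of the 10 genes had both HKO libraries above both controls, where 62.6% of all genes did, and their median log2 fold change was 0.31, against 0.25 for all genes. None passed, where 12.7% of all genes passed on the deposited TPM and 12.3% after median-ratio rescaling, and none passed with HKO_P10 replicate 2 left out. Members other than Hspa5 and Atf6 then had log2 fold changes of -0.078 (Herpud1) to 0.71 (Creld2), with adjusted p of 0.259 to 0.927. At 1 month the median was -0.36 over the 10 genes, against -0.0013 over all genes, and 5 of 10 passed as lower after median-ratio rescaling, where 7.84% of all genes did. That count depends on the scaling: without mitochondrially encoded genes in the total, Herpud1 was the one member lower, and 2, Pdia4 and Sdf2l1, were higher. In that run more of all genes passed than on the deposited TPM, by the counts given in the closing section. In the acute comparison the median was -0.83, against -0.36 over all genes. On the deposited TPM 8 of 10 passed as lower, where 34.8% of all genes did, and after median-ratio rescaling 2 of 10 did, where 27.5% of all genes did; it was also 2 without mitochondrially encoded genes. The acute count was 5 without acHKO replicate 3, 5 without GFP replicate 2 and 4 without GFP replicate 3. Over all genes 4058 passed in either direction with every library, and 2801 to 5188 with a library left out. The authors' deposited table listed 4 as lower in the acute comparison (Dnajb9, Xbp1, Hspa5 and Dnajc3), where 16.1% of all genes with an adjusted p in it were lower. At 1 month the authors' deposited table listed 3 as lower (Herpud1, Dnajb9 and Atf6), where 4.53% of its genes were lower. At P10 the authors' deposited table listed Hspa5 and Atf6 as higher and Herpud1 as lower, where 13.4% of its genes were higher and 11.8% lower.

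**Figure D3:**
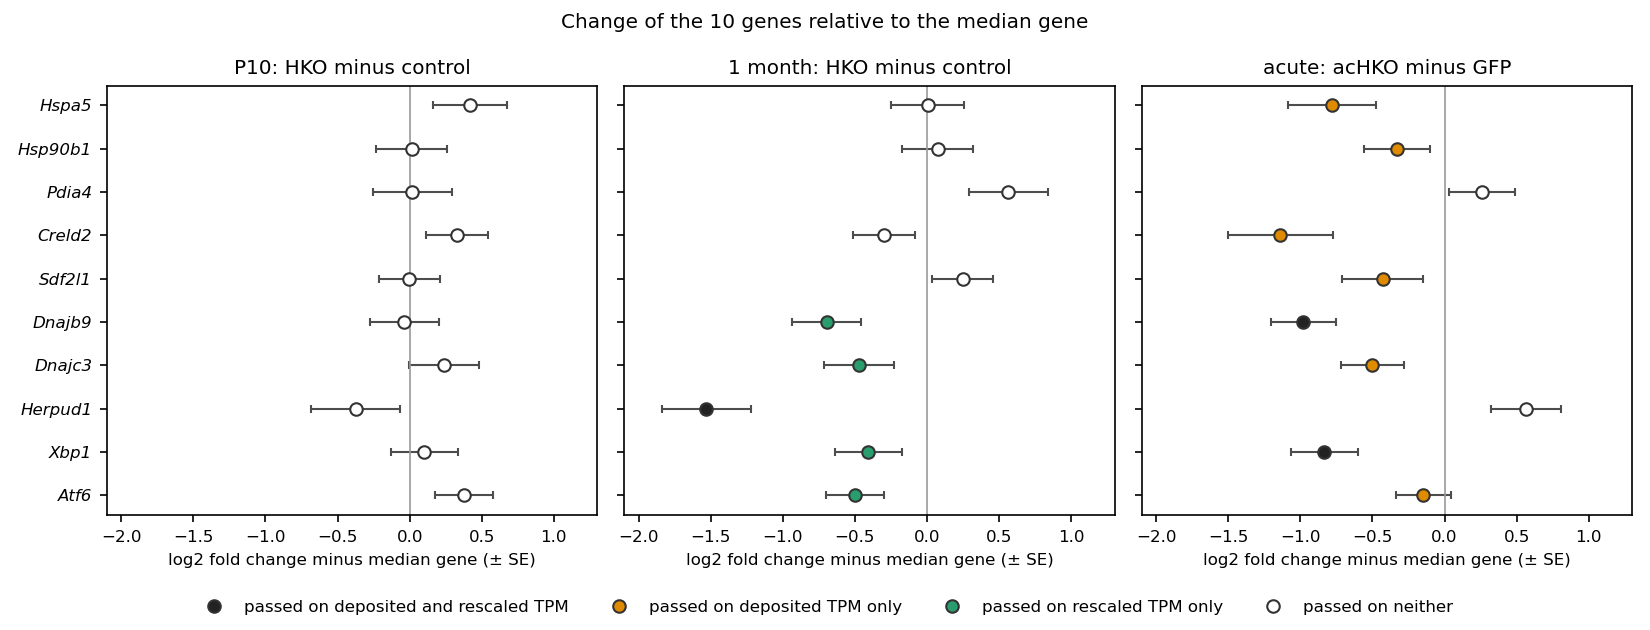
Log2 fold change of the 10 genes minus that of the median gene, knockout minus control, in the P10, 1 month and acute comparisons; points are limma estimates, bars are ± 1 SE, and the fill shows whether a gene passed on deposited TPM, on median-ratio rescaled TPM, on both or on neither. The SE and the fill belong to the log2 fold change before the median was subtracted. All 10 points of the P10 panel are open, Herpud1 is filled for both scales at 1 month at -1.53, and Dnajb9 and Xbp1 are filled for both scales in the acute panel.

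The transcript table gave a further quantity that does not depend on how libraries are scaled, the share of each transcript in its gene's TPM. The sequences below show what the table can and cannot hold for Xbp1. The intron that IRE1 removes is 26 bases long, at chr11:5524282-5524307 (GRCm38, + strand), and is given in capitals within the exon around it.
Xbp1 IRE1 intron: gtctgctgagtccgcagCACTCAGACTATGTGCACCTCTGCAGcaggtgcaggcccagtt
It is present in Xbp1-201, Xbp1-203 and Xbp1-204, and Xbp1-202 ends before it, so no transcript of the table is the IRE1-spliced form. The level of XBP1s mRNA was therefore not measured here. Xbp1-203 differs in another way, since it keeps the last intron of Xbp1-201, 300 bases at chr11:5524385-5524684, which the spliceosome removes. Its borders are given with exon bases in capitals and intron bases in lower case.
Xbp1 last intron, 5' border (chr11:5524370-5524399): TCTTCAGATTCTGAGgtagagcttattctg
Xbp1 last intron, 3' border (chr11:5524670-5524699): ttttgcctcttgtagTCTGATATCCTTTTG

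Xbp1-203 took 16.7, 12.2 and 12.3% of Xbp1 TPM in acHKO, against 4.09, 3.78 and 2.35% in GFP controls. Every acHKO library was above every control, a mean of 13.7% ± 2.6 in acHKO and 3.41% ± 0.92 in GFP controls (SD, n = 3 each). Xbp1-201, the main coding form, took 79.0% ± 1.8 in acHKO and 87.0% ± 3.3 in GFP controls. Transcript usage of Xbp1 differed between acHKO and GFP controls (limma diffSplice, adjusted p = 0.00024 over all genes tested). Of the members that could be tested, Xbp1, Herpud1 and Hspa5, Xbp1 alone was called, where 35.5% of all genes tested were called. A gene was called at an adjusted p under 0.05 with a share that moved by at least 10 percentage points, and Xbp1-203 moved by 10.3, so without acHKO replicate 1 or GFP replicate 3 the share fell short of that size while the adjusted p stayed at 0.00525 and 0.00465. The level of Xbp1-203 itself was 7.75, 6.16 and 4.96 TPM in acHKO, against 2.94, 4.99 and 2.93 TPM in GFP controls, and thus overlapped.

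The same transcript had a higher share in both HKO comparisons without passing. Xbp1-203 took 9.08 and 11.001% in HKO_P10, against 3.74 and 3.18% in control_P10 (gene adjusted p = 0.259, with 0.586% of all genes called, and an adjusted p of 1 without HKO_P10 replicate 2). In HKO_1m it took 7.26 and 10.5%, against 4.52 and 3.25% in control_1m (gene adjusted p = 0.39, with 0.234% of all genes called). In each of the 3 comparisons the knockout libraries lay above their controls, and the 7 knockout libraries spanned 7.26 to 16.7%, against 2.35 to 4.52% in the 7 controls. The comparisons are separate, usage passed in the acute one alone, and how many of all transcripts separate in this way was not counted. Xbp1-203 is annotated as protein coding, and Xbp1-202 as a retained intron. Xbp1-202 took a mean of 11.1% in HKO_P10 and 7.70% in control_P10, and 7.32% in HKO_1m and 8.35% in control_1m. In acHKO it took 6.32% and in GFP controls 6.28%. Hspa5-206, also annotated so, took 0.864% in HKO_1m and 0.388% in control_1m, but 0.199% in acHKO and 0.464% in GFP controls. Herpud1 has a transcript annotated as a retained intron too. Herpud1-203 took 19.9 and 13.01% in HKO_1m, against 7.60 and 4.44% in control_1m, while its own level was 14.3 and 15.9 TPM in HKO_1m and 17.2 and 14.6 TPM in control_1m. The low gene level of Herpud1 at 1 month thus came with 67.6 ± 28.1 TPM of its main coding form Herpud1-205 in HKO_1m and 225.7 ± 64.4 TPM in control_1m (SD, n = 2 each). Transcript usage of Herpud1 did not pass at 1 month (adjusted p = 0.159) or in the acute comparison (adjusted p = 0.138). Hspa5, the third member with more than 1 transcript that could be tested, passed in none of the 3. Of the remaining members Creld2, Dnajc3 and Sdf2l1 have 1 transcript each in the table, and Hsp90b1, Pdia4, Atf6 and Dnajb9 had no second transcript at 5% of the gene or more over the libraries of a fit, though Dnajb9-202 took 7.10 and 6.35% of its gene in control_P10.

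**Figure D4:**
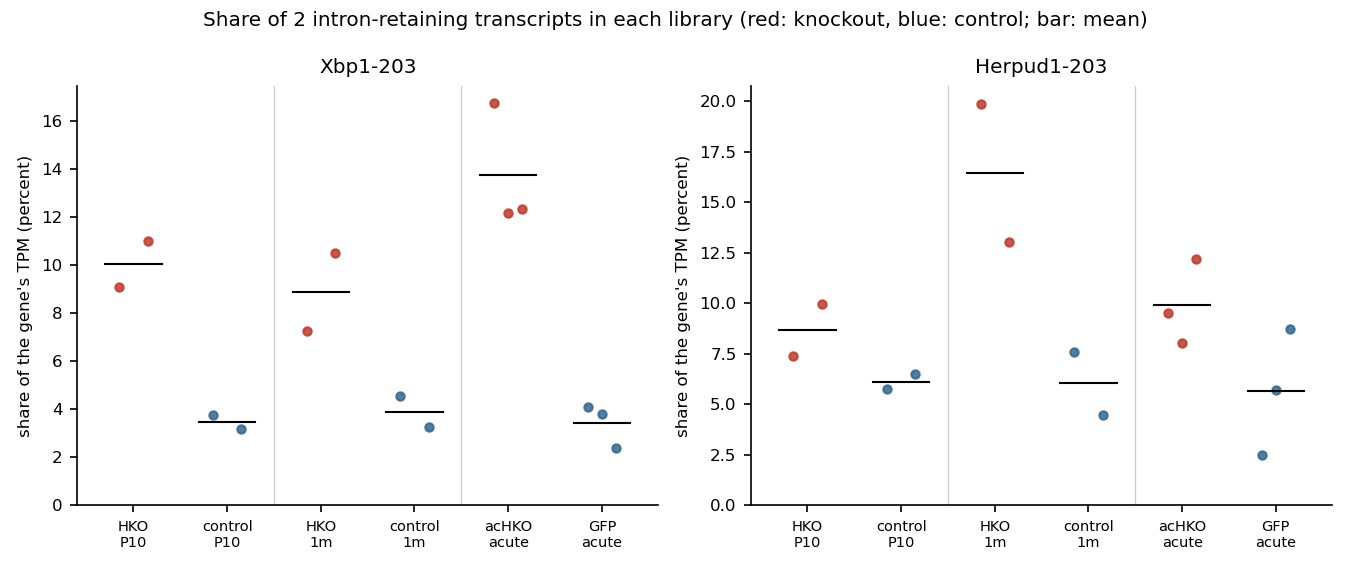
Share of Xbp1-203 (left) and Herpud1-203 (right) in their gene's TPM in percent, for each library; points are libraries, red for knockout groups and blue for controls, and black bars are group means. Xbp1-203 is at 7.26% or more in the 7 knockout libraries and at 4.52% or less in the 7 controls, and Herpud1-203 reaches 13.01 and 19.9% in HKO_1m. How many other transcripts separate in this way was not counted.

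Other genes of the pathway were counted in lists that exclude the 10. Among genes of ER folding, 12 of 26 tested fell and none rose in acHKO (8 fell and 2 rose after median-ratio rescaling), where 34.8% of all genes fell and 5.93% rose on the deposited TPM and 27.5% fell and 14% rose after rescaling. Hyou1, a further ER Hsp70 relative that recharges BiP, was at 14.5 ± 5.1 TPM in acHKO and 49.1 ± 20.6 TPM in GFP controls (SD, n = 3 each; adjusted p = 0.000402, and 0.0177 after rescaling). Canx, the membrane lectin chaperone calnexin, was at 50.7 ± 7.7 TPM in acHKO and 109.1 ± 19.4 TPM in GFP controls (adjusted p = 0.000833, and 0.00603 after rescaling), and Ero1lb, an ER oxidase, fell as well. At P10 the folding list gave 1 of 26, Fkbp11, at 61.8 ± 8.2 TPM in HKO and 21.7 ± 1.8 TPM in controls (SD, n = 2 each; adjusted p = 0.00129, 0.00265 after rescaling and 0.0044 without HKO_P10 replicate 2), and at 1 month none passed on the deposited TPM. Of 23 ER-associated degradation genes, the group of Herpud1, 12 fell in acHKO (8 after rescaling), led by Sel1l, a scaffold of the HRD1 ligase (13.2 ± 1.9 TPM in acHKO and 29.7 ± 6.4 TPM in GFP controls). None of these 23 passed at P10 or at 1 month on the deposited TPM. After rescaling 2 were lower at P10, where 6.08% of all genes were, and 5 at 1 month, where 7.84% were. In protein entry into and export from the ER, 23 of 36 fell in acHKO (13 fell and 1 rose after rescaling), among them Srp54a, Sec61g and Srpr of the signal recognition and translocation machinery, and none passed in either HKO comparison on the deposited TPM. At 1 month after rescaling, 2 of the 26 folding genes and 4 of these 36 were lower, where 7.84% of all genes were.

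Of 25 chaperones of the cytosol and mitochondria 17 fell in acHKO (13 fell and 2 rose after rescaling), where 34.8% of all genes fell (27.5% after rescaling), led by Tcp1 of the cytosolic chaperonin. At P10 4 of these 25 rose, and 3 after rescaling, where 10.8% of all genes rose (6.22% after rescaling), among them the small heat shock protein gene Hspb1, at 6.49 ± 0.27 TPM in HKO and 0.0988 ± 0.0114 TPM in controls (SD, n = 2 each), and 2 rose without HKO_P10 replicate 2. Of the sensors and regulators of the response 14 were tested. At P10 4 rose, among them Eif2ak3, which encodes PERK (7.34 ± 0.66 TPM in HKO_P10 and 3.70 ± 0.49 TPM in control_P10), and Ern1, which encodes IRE1 (8.23 ± 0.025 TPM in HKO_P10 and 4.36 ± 0.0083 TPM in control_P10), where 10.8% of all genes rose, but none of the 14 passed without HKO_P10 replicate 2. After median-ratio rescaling 2 of the 14 were higher, where 6.22% of all genes were, and 2 lower, where 6.08% were. Eif2ak3 did not pass on that scale (limma adjusted p = 0.0541). None passed at 1 month on the deposited TPM, and 7 of the 14 fell in acHKO, where 34.8% of all genes fell, or 6 fell and 2 rose on rescaled TPM, where 27.5% fell and 14% rose.

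The third arm of the response is that of PERK, and its targets were counted in 1 list with those of the integrated stress response. This list does not separate genes raised through PERK from genes raised through the integrated stress response without it. At P10 14 of 22 tested rose and none fell, also 14 on median-ratio rescaled TPM and 10 with HKO_P10 replicate 2 left out, where 10.8% of all genes rose. Their median relative log2 fold change was 1.07, against 0.061 for the 10 genes. Atf4, the transcription factor that PERK signalling raises, was at 49.4 and 64.0 TPM in HKO_P10, against 28.6 and 29.4 TPM in control_P10 (adjusted p = 0.0346, 0.0436 after rescaling and 0.271 without HKO_P10 replicate 2). Cholangiocyte and erythroid markers also summed higher in the HKO_P10 libraries, at the levels given above, and their part was not tested. At 1 month 4 of 22 rose (5 after rescaling), led by Nupr1, where 4.87% of all genes rose (6.82% after rescaling). In the acute comparison 5 of 18 rose and 3 fell (8 and 2 after rescaling), against the shares of all genes given for ER folding, with Ddit4 at 39.9 ± 21.3 TPM in acHKO and 2.22 ± 0.25 TPM in GFP controls, and with Ddit3, which encodes CHOP, at 2.94 ± 0.22 TPM in acHKO and 6.03 ± 0.36 TPM in GFP controls (SD, n = 3 each). Known targets of IRE1-dependent decay were few: of 3 tested in the acute comparison Bloc1s1 fell and Sparc rose. How these lists differ from the 10 genes was not tested.

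**Figure D5:**
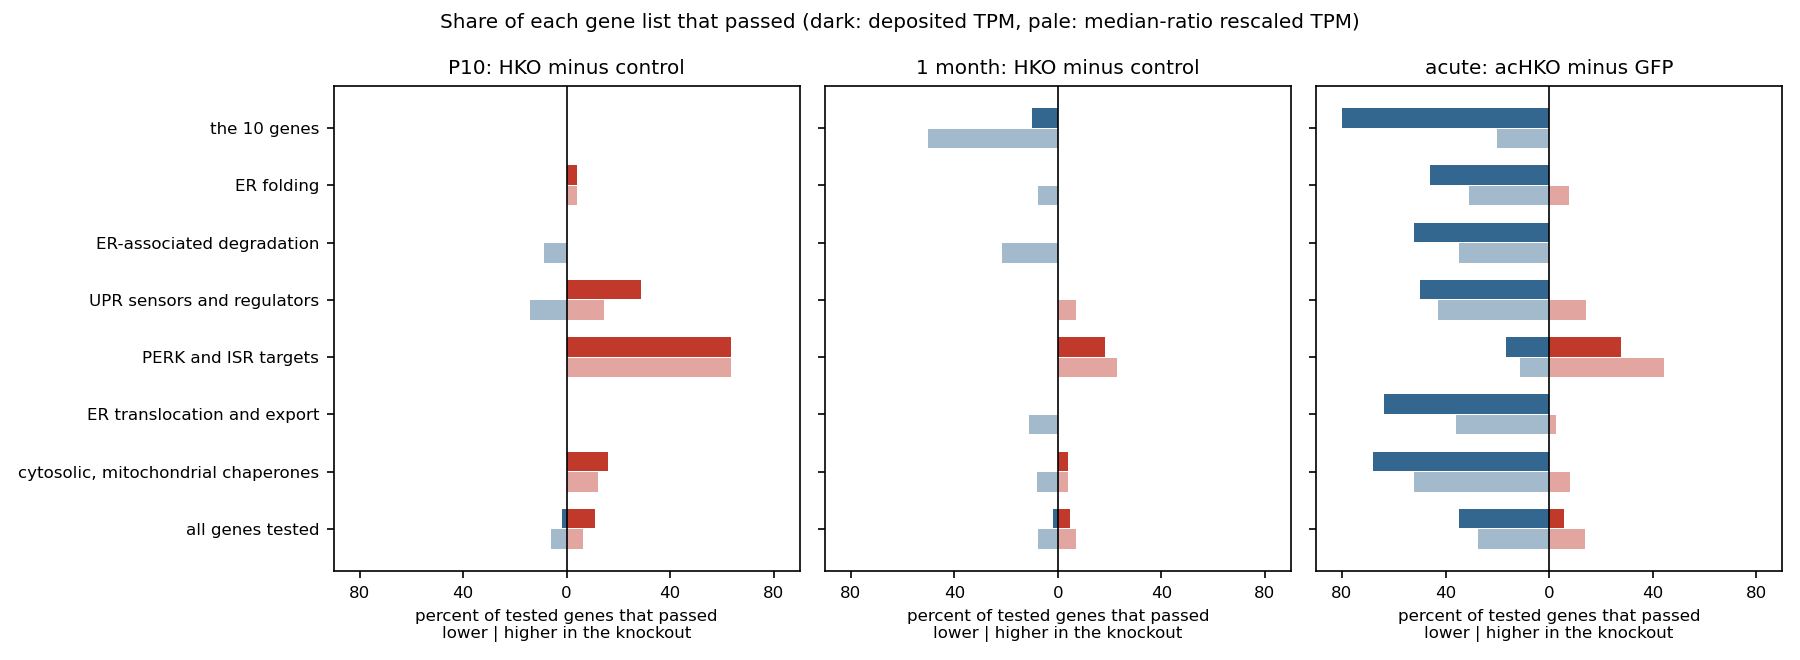
Percent of the tested genes of each list that passed, lower in the knockout to the left and higher to the right, for the P10, 1 month and acute comparisons; dark bars are deposited TPM, pale bars are median-ratio rescaled TPM, and the bottom row is all genes tested. The PERK and integrated stress response list has 14 of 22 genes higher at P10 where the 10 genes have none, and in the acute panel 8 of the 10 genes are lower on deposited TPM and 2 on rescaled TPM.

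The members did not move as 1 block. Likeness was measured as the root mean square log2 difference between profiles over the 14 libraries, each centred on its own mean, among genes that averaged 5 TPM or more; small values mean like profiles. Xbp1 and Dnajb9 were each other's nearest member (0.193), with no other gene nearer to Dnajb9 and 2 nearer to Xbp1 among 6043 that are not members. Atf6 and Dnajc3 were each other's nearest member as well (0.207). Hsp90b1 was nearest to Pdia4 among members (0.28), but 1802 other genes were nearer to it, the first of them Calr, the ER lectin chaperone calreticulin (0.0819). The genes nearest to Hspa5 were Palld, Gtpbp4, Tsr1, Top1 and Clp1 (0.245 to 0.264), and those nearest to Xbp1 were Onecut2, Ube2q2, Atp13a3, Txndc11 and Zfp106 (0.156 to 0.212). Herpud1 was the farthest from the rest, at 0.737 from its nearest member Atf6. The summed level of the 10 genes was 1142 and 1236 TPM in HKO_P10, against 877 and 917 TPM in control_P10. At 1 month it was 616 and 829 TPM in HKO, against 788 and 1036 TPM in controls, and in the acute comparison 613 to 969 TPM in acHKO, against 994 to 1717 TPM in GFP controls.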

How the data were processed

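RNA was taken from purified, flash-frozen hepatocytes and made into stranded poly(A) libraries, per the labels' protocols. The authors estimated transcript levels as TPM, per the labels with kallisto 0.46.0 and on GRCm38 (bcl2fastq 2.17.1.14 and DESeq2 are also named in the submitters' processing notes), and deposited 1 table of 14 libraries; other settings are not given in the sources used here. Their deposited DESeq2 tables hold log2 fold changes and p-values, some with no adjusted p, and are used only as the authors' values. Each library sums to 1000000 TPM, so depth is unknown and no count test was run.

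TPM were summed per gene ID, gene positions were read from GENCODE M21 (GRCm38), and genes were tested with limma 3.58.1 (R 4.3.3) on log2(TPM + 1) with a mean of at least 1 TPM. The HKO comparisons were fitted on 8 libraries, the acute comparison on 6 and their difference on 14; transcript usage was tested with diffSplice among transcripts with at least 5% of their gene. The fit was tested on simulated data. Same-numbered libraries are not said to be paired, so no pairing was used.

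The 10 genes and all lists were chosen with earlier results of these data known; the clock list was added after seeing the data. All 10 genes are named, with Srsf1 as the targeted gene. From other lists up to 3 genes a list, comparison and direction with the smallest p among those that passed may be named, plus any that passed against their list's majority. Nearest profiles are named for Hspa5 and Xbp1. Atf4 and Calr fall outside the rule and were named after their values were seen. Alternatives were median-ratio rescaling, leaving out mitochondrially encoded genes, coding transcripts alone, a pseudocount of 0.1, no filter, the replicate number as a block, and each library left out.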

Additional observations from a re-analysis of the deposited data

Results flagged for a closer look

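The knockout effect on Herpud1 differed between the acute and the 1 month comparison. The acute effect minus the 1 month effect was 1.73 on the log2 scale (SE 0.42, limma adjusted p = 0.0223 over all genes). Herpud1 averaged 264 ± 72 TPM in acHKO and 228 ± 52 TPM in GFP controls (SD, n = 3 each), and 97.1 ± 35.6 TPM in HKO_1m and 278.0 ± 72.2 TPM in control_1m (SD, n = 2 each). The model, the age, the vector and the index scheme used in sequencing differ between both experiments and cannot be told apart. Without control_1m replicate 2 the difference was 1.47 (adjusted p = 0.083), and without GFP_acute replicate 3 it was 1.55 (adjusted p = 0.0573).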

How the results depend on the processing

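The calls of Dnajb9 and Xbp1 in the acute comparison and the adjusted p of Xbp1 transcript usage there stayed under 0.05 in every alternative run. Among members called otherwise, the count at P10, 0 on the deposited TPM, was 4 higher without mitochondrially encoded genes, 3 higher with the replicate block and 1 higher in a fit of all 14 libraries. Counts over all genes in the runs where they moved are given below, and the member counts are to be read against them. At 1 month it was 1, and 5 after median-ratio rescaling, 3 without mitochondrially encoded genes, 2 with the replicate block and 0 with no filter. In the acute comparison it was 8, and 2 after rescaling, without mitochondrially encoded genes or with no filter. For HKO over age it was 6 lower, where 62.2% of all genes were lower, and 2 higher after rescaling, where 20.3% were higher. For controls over age it was 3, where 44.3% of all genes passed, and 6 after rescaling, where 45.2% did. For controls it was also 6 without mitochondrially encoded genes and 5 with the replicate block. For the 1 month minus P10 effect it was 0, and 1 after rescaling or without mitochondrially encoded genes, 2 with coding transcripts alone and 4 with the replicate block. For the acute minus 1 month effect it was 1, and 0 with no filter and 2 with the replicate block. Leaving out each library gave 0 to 0 members at P10, 0 to 3 at 1 month, 4 to 8 in the acute comparison, 1 to 9 for HKO over age, 1 to 2 for controls over age, 0 to 6 for the 1 month minus P10 effect and 0 to 2 for the acute minus 1 month effect. Members called for transcript usage were 0 to 1 at 1 month, with 1 (Herpud1) under the replicate block, and 0 to 1 in the acute comparison.

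In the P10, 1 month and acute comparisons, directions of members that turned did not pass. At P10 after rescaling Hsp90b1 was at -0.020, Dnajb9 at -0.063 and Pdia4 at -0.013 on the log2 scale, and Herpud1 ranged from -0.33 to 0.084 with a library left out. At 1 month Hspa5 was at -0.066 after rescaling, -0.11 with coding transcripts alone and -0.21 to 0.21 with a library left out. Hsp90b1 was there at -0.13 to 0.27 with a library left out, and Creld2 at 0.013 without mitochondrially encoded genes. In the acute comparison Pdia4 was at 0.19 after rescaling, 0.35 without mitochondrially encoded genes and -0.36 to 0.11 with a library left out. Over age, rescaling turned the direction of 7 of 10 members in HKO, where Sdf2l1 then passed as higher (0.42, adjusted p = 0.0332) and Hsp90b1 was at 0.15 after rescaling and at -0.71, a call, before it, and of 4 of 10 in controls, where Dnajb9 then passed as higher (0.60, adjusted p = 0.011).

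Over all genes, 1488 passed at P10, and 3582 without mitochondrially encoded genes, 932 with a pseudocount of 0.1, 2236 with no filter, 2936 with the replicate block and 562 to 896 with a library left out. At 1 month 805 passed, and 1687 after rescaling, 2856 without mitochondrially encoded genes, 391 with no filter, 1503 with the replicate block and 613 to 1344 with a library left out. In the acute comparison 4058 passed, and 1983 without mitochondrially encoded genes and 2801 to 5188 with a library left out. For HKO over age 7820 passed, and 4547 after rescaling and 5172 to 9312 with a library left out; for controls over age 5194, and 3055 to 4638. For the 1 month minus P10 effect 329 passed, and 530 after rescaling, 671 with coding transcripts alone, 981 with the replicate block and 203 to 1688 with a library left out. For the acute minus 1 month effect 766 passed, and 1483 after rescaling, 1164 without mitochondrially encoded genes and 365 to 2127 with a library left out. The cause of these differences was not tested.

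The mean summed level of the 10 genes in HKO_P10 was 1189 TPM, and 720 after rescaling, 1715 without mitochondrially encoded genes and 1391 with coding transcripts alone. In control_P10 it was 897, and 658, 1282 and 1046. Without mitochondrially encoded genes it was 1269 in HKO_1m and 1274 in control_1m, control_1m was at 1123 with coding transcripts alone, and acHKO was at 1315 and, after rescaling, at 1139. Same-numbered libraries correlated in their deviations at 0.0070 at P10, at 0.28 at 1 month and at -0.039, 0.27 and 0.18 in the acute comparison. Differently numbered ones correlated at -0.0070 at P10, at -0.28 at 1 month and at -0.265 to 0.092 in the acute comparison. Whether same-numbered libraries are paired is therefore not known. Calls gained or lost with the replicate block are not read as stronger or weaker effects. With 2 or 3 libraries a group and unknown depth, a member that did not pass may still differ.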
